A study of Saccharomyces cerevisiae with 4 samples.

Results

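The 10 genes described here keep budding yeast supplied with usable ubiquitin. They encode ubiquitin itself (UBI4, RPL40A, RPL40B, RPS31), the enzyme that activates it (UBA1), the main conjugating enzymes (UBC4, UBC5) and the proteases that recover it (DOA4, UBP6, UBP14). They were taken by gene name from a table of 7130 rows. All 10 were found, and all 10 passed the filter of a mean of at least 1 FPKM, as did 6892 rows in all. FPKM is the number of sequenced fragments per kilobase of transcript and per 1000000 mapped fragments. The study measured RNA in 2 libraries of a strain labelled Asr1-RING, mutated in the RING domain of the ubiquitin ligase Asr1, and in 2 libraries of a strain labelled wild type (WT). Both strains were grown in enriched medium to log phase, at an optical density of about 0.8, and had ribosomal RNA removed before sequencing. The labels name neither the strain background nor whether the mutation was made at the chromosomal locus. They also do not say if replicate libraries were grown separately, and p-values here therefore measure a spread that may be technical. The mutated gene, ASR1 (YPR093C), had 4.99 and 5.39 FPKM in Asr1-RING and 7.05 and 6.34 FPKM in WT. Both mutant libraries lay below both WT libraries, but the difference did not pass limma's test (adjusted p = 0.157, unadjusted p = 0.0358). A value per gene cannot show a change within the RING, so it does not check the labels.

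Ubiquitin is a small protein that cells attach to other proteins, often as a chain that sends the target to the proteasome. It is made as a fusion, either head to tail with other ubiquitin units or in front of a ribosomal protein, and proteases cut it free. The activating enzyme (E1) charges ubiquitin with ATP and passes it to a conjugating enzyme (E2), which works with a ligase (E3) such as Asr1. Proteases then remove ubiquitin from targets before they are destroyed, so that it can be used again. In growing yeast the ribosomal fusions are known as the main source of ubiquitin, and UBI4 is known for its induction by stress.

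The coding sequences show how far reads of the 4 ubiquitin genes can be told apart. The reference genome R64 of RefSeq, searched by systematic name, gave the same gene length as the deposited row for all 10 members. UBI4 encodes 5 ubiquitin units of 76 residues, and RPL40A, RPL40B and RPS31 encode 1 each. All 8 units had the same 76 residues, written with different codons. The first 60 coding bases of each gene follow, 5′ to 3′ on the coding strand from the start codon and with introns removed. Capitals mark the 12 positions at which the 4 genes are not all the same.
UBI4: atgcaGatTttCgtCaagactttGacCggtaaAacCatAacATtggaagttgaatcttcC
RPL40A: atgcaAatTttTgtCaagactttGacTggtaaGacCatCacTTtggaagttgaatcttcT
RPL40B: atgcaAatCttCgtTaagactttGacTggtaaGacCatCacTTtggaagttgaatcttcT
RPS31: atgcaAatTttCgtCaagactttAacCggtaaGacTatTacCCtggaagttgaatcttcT

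UBI4 units were 80.7% to 86.8% identical in DNA to the units of the other 3 genes, and the longest stretch shared without a mismatch was 29 bases. RPL40A and RPL40B encode the same 128 residues and had 93.8% identical coding bases, with a longest shared stretch of 74 bases. Of all 50-base words in its coding sequence, RPS31 had 100% that occur once among all coding sequences of the reference. That share was 85.8% for RPL40A and for RPL40B. For UBI4 it was 81.8%, and 0 of its words occur in another gene, so those that recur are shared between its own units. The sources used here give neither the read length nor how reads with several matches were treated, so the split between RPL40A and RPL40B is uncertain, and so is the UBI4 level if such reads were dropped.

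The conjugating enzymes are a second pair of relatives. UBC4 and UBC5 share 92.6% of 148 residues and 77.2% of their coding bases. Their first 60 coding bases differ at 11 positions, in capitals, and no stretch longer than 14 bases is shared anywhere in the coding sequence.
UBC4: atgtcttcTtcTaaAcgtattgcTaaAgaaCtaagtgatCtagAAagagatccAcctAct
UBC5: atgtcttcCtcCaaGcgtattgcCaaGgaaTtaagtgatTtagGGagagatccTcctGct

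Levels per length ran over nearly 3 orders of magnitude, and the order of the members was almost the same in both strains. In the mutant libraries RPS31 had the highest FPKM, followed by RPL40A, RPL40B, UBC4, UBA1, UBC5, UBI4, UBP6, UBP14 and DOA4. In WT the order differed in 1 place, with UBP6 above UBI4. No pair of neighbours in either order had overlapping libraries. Among the 6517 tested rows of open reading frames (ORFs), mean levels stood at percentile 99.3 for RPS31, 98.4 for RPL40A and 97.7 for RPL40B. UBI4 stood at percentile 64.9, close to UBP6 at 65.2, and DOA4 at 21.5.

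**Figure D1:**
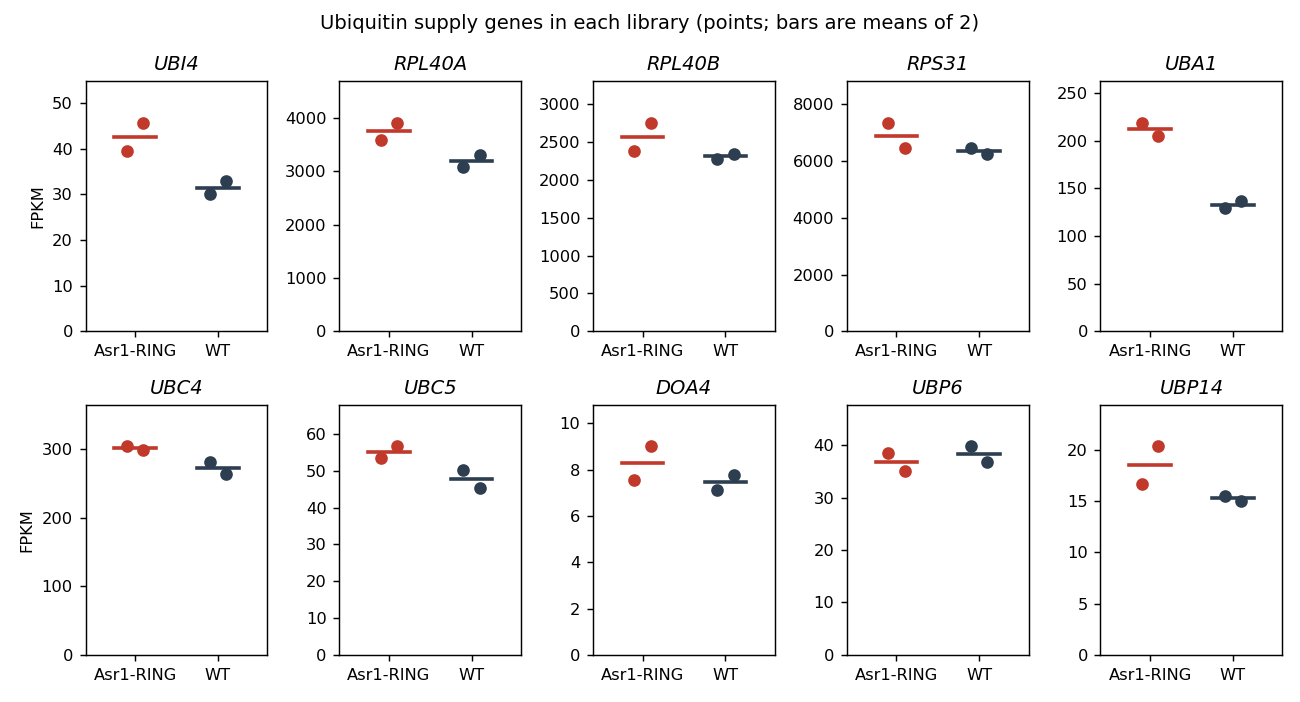
FPKM of the 10 members in each library (points), with the mean of 2 libraries as a bar, Asr1-RING left and WT right. Each panel starts at 0 and has its own scale. UBA1 shows the widest separation, with 219 and 205 FPKM in Asr1-RING against 129 and 136 FPKM in WT.

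UBA1, the E1 enzyme at the head of the ubiquitin cascade, was higher in the mutant. It was the 1 member that passed the test. UBA1 (YKL210W, chromosome XI, 39164 to 42238 in the build sacCer2, no introns) had 219 and 205 FPKM in the Asr1-RING libraries and 129 and 136 FPKM in the WT libraries. Both mutant libraries lay above both WT libraries, by far more than replicates differed. The means were 212 ± 9.79 FPKM in Asr1-RING and 133 ± 4.84 FPKM in WT (SD, n = 2 each), a 1.59-fold higher mean. On the scale of log2(FPKM + 1), on which all differences below are given as mutant minus WT, the difference was 0.67 (SE 0.0931, limma adjusted p = 0.0137). Over all rows tested, 1.89% were called higher and 4.95% lower at an adjusted p under 0.05, or 6.83% in either direction, against 1 of 10 members higher and 0 lower. Among the 6517 ORF rows, the class of all 10 members, 127 were called higher and only 60 lower. The UBA1 difference stood at percentile 98.5 of ORF rows.

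The UBA1 call rested on having both WT libraries. It ended without WT replicate 1 (difference 0.63, limma adjusted p = 0.155) and without WT replicate 2 (difference 0.71, limma adjusted p = 0.0969), while the difference itself stayed between 0.59 and 0.72 over all 14 alternatives. Some of these alternatives, those of the filter, the moderation, the replicate block and ORF rows only, cannot change the difference itself. An estimated 26891 and 26366 fragments in the mutant and 17581 and 15967 in WT lay behind the UBA1 values. This puts counting error under 1% in each library.

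**Figure D2:**
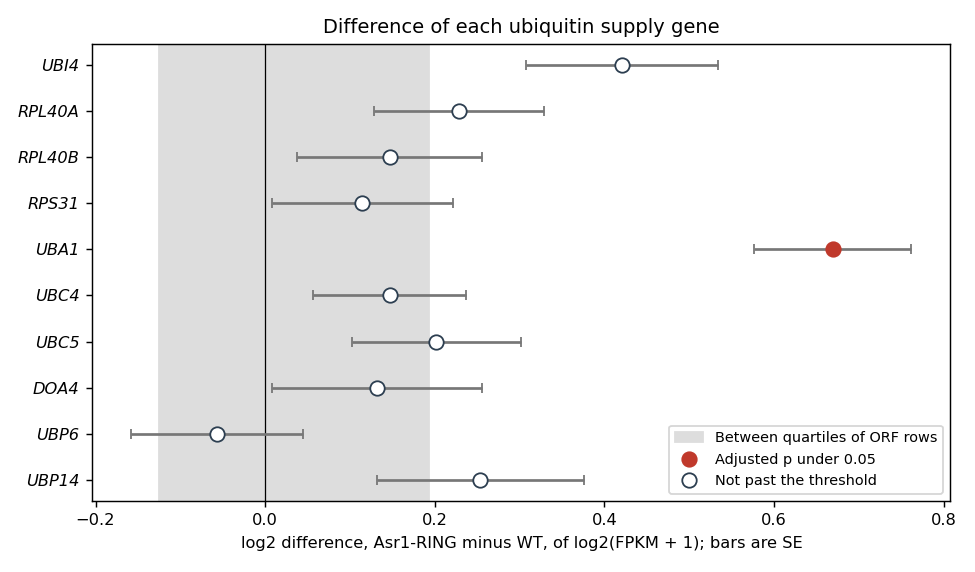
Difference of log2(FPKM + 1), Asr1-RING minus WT, for each member (points) with its SE (bars), and the range between the quartiles of ORF rows in grey. UBA1 at 0.67 is the filled point past the threshold, UBI4 at 0.42 is the next, and UBP6 at -0.06 lies below 0.

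UBI4, the polyubiquitin gene, had the next largest difference and did not pass the test. UBI4 (YLL039C, chromosome XII, 64061 to 65206) had 39.5 and 45.7 FPKM in the Asr1-RING libraries and 30.2 and 32.9 FPKM in the WT libraries. The groups did not overlap, and the mutant libraries lay further apart than the WT libraries. The means were 42.6 ± 4.42 FPKM in Asr1-RING and 31.5 ± 1.95 FPKM in WT (SD, n = 2 each), a ratio of 1.35 (difference 0.42, SE 0.113, limma adjusted p = 0.0869, unadjusted p = 0.0106). When mutant replicate 1 was left out, which leaves 1 mutant library, the difference was 0.52. Values came from an estimated 1595 and 1935 fragments in the mutant and 1346 and 1267 in WT, with a counting error of 2.27% to 2.81%.

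The ribosomal fusion genes differed less. RPL40A (YIL148W, chromosome IX, 68708 to 69528, 1 intron), which encodes ubiquitin joined to large-subunit protein eL40, had 3592 and 3912 FPKM in Asr1-RING and 3088 and 3315 FPKM in WT. Its copy RPL40B (YKR094C, chromosome XI, 617638 to 618392, 1 intron) had 2378 and 2757 FPKM in Asr1-RING and 2279 and 2346 FPKM in WT. For both, the mutant libraries lay above the WT libraries, RPL40B by little. The differences were 0.23 for RPL40A (SE 0.101, limma adjusted p = 0.218) and 0.15 for RPL40B (SE 0.109, limma adjusted p = 0.432).

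RPS31 (YLR167W, chromosome XII, 498949 to 499407, no introns), the fusion to small-subunit protein eS31, had 7354 and 6447 FPKM in Asr1-RING and 6460 and 6261 FPKM in WT. The groups overlapped, since mutant replicate 2 lay between the WT libraries (difference 0.11, SE 0.107, limma adjusted p = 0.538). Among the other 134 cytosolic ribosomal protein genes the median difference was 0.08, and 0.09 when mutant replicate 1 was left out. At an unadjusted p under 0.05, 17 of the 134 were higher and 4 lower, where 1002 of 6517 ORF rows were higher and 498 lower. Limma called 0 of the 134 in either direction. The smallest p among them was that of RPL19A, at 1309 and 1232 FPKM in Asr1-RING and 1739 and 1609 FPKM in WT (difference -0.40, limma adjusted p = 0.0710). Of these genes, 26 had a larger difference than RPL40A, 47 a larger one than RPL40B and 56 a larger one than RPS31.

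These values depended on scaling. After quantile normalization the differences were 0.54 for RPL40A (limma adjusted p = 0.0433), 0.59 for RPL40B (limma adjusted p = 0.0287) and 0.47 for RPS31 (limma adjusted p = 0.0717), and the median of the other ribosomal protein genes was 0.44, with 55 of 134 called higher. With libraries centred on a common median the same 3 differences were 0.15, 0.07 and 0.04, and the median of the other ribosomal protein genes was 0.01. UBA1 was called under both scalings (differences 0.67 and 0.59, limma adjusted p = 0.0244 and 0.0314). The split of all calls was 130 higher and 341 lower as deposited, 70 and 447 after centring, and 307 and 316 after quantile normalization.

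Counting each transcript by the ubiquitin units it encodes gives a picture of where ubiquitin comes from. FPKM multiplied by units summed to 13522 and 13345 over the 4 genes in the Asr1-RING libraries and to 11979 and 12087 in the WT libraries. UBI4, despite its 5 units, supplied 1.46% and 1.71% of them in Asr1-RING and 1.26% and 1.36% in WT. RPS31 supplied 54.4% and 48.3% in Asr1-RING and 53.9% and 51.8% in WT, and the RPL40 pair together 44.2% and 49.98% in Asr1-RING and 44.8% and 46.8% in WT. The fusion genes thus held nearly all of the units in every library. These are values of RNA, not of protein, and no test was made of them. The split between genes also depends on the lengths by which FPKM was scaled. Steps of low rows were read here with 202 bp taken off each length, which weighs most on short rows such as RPS31. Whether the scaling lengths of RPL40A and RPL40B include their introns is not known here.

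**Figure D3:**
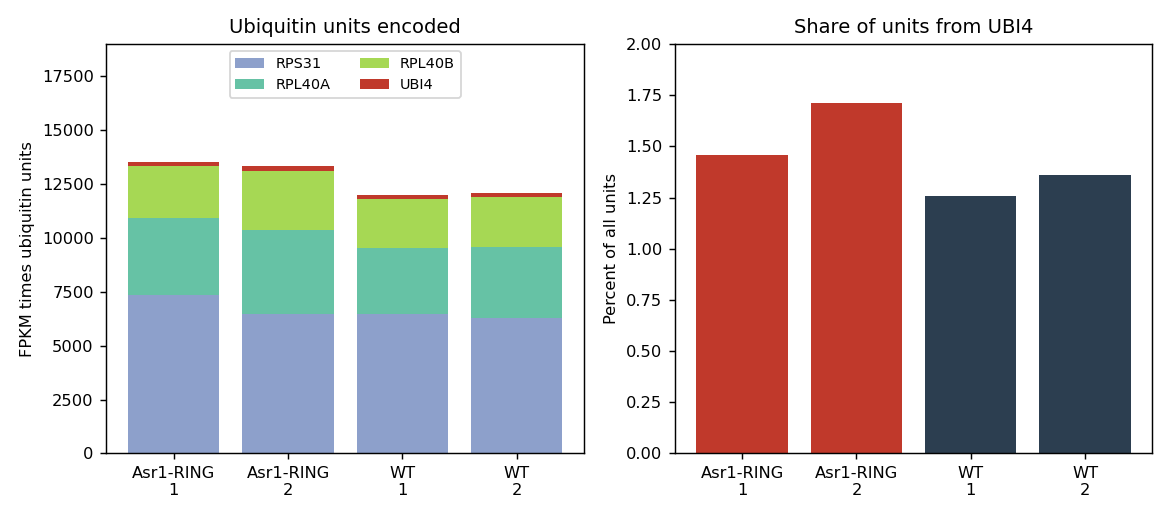
Left, FPKM multiplied by the number of ubiquitin units each gene encodes, stacked by gene for each library. Right, the percent of those units that comes from UBI4, 1.46% and 1.71% in the Asr1-RING libraries and 1.26% and 1.36% in the WT libraries.

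The level of the E1 relative to its partners moved with UBA1 itself. Per 1000 units of the ubiquitin sum, UBA1 had 16.2 and 15.4 FPKM in the Asr1-RING libraries against 10.8 and 11.3 FPKM in the WT libraries. The ratio of UBA1 to UBC4 FPKM was 0.720 and 0.685 in the Asr1-RING libraries against 0.461 and 0.517 in the WT libraries. These ratios are descriptions and were not tested.

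The conjugating enzymes UBC4 and UBC5, which act on short-lived and abnormal proteins, did not pass the test. UBC4 (YBR082C, chromosome II, 406622 to 407163, 1 intron) had 304 and 299 FPKM in Asr1-RING and 281 and 264 FPKM in WT. UBC5 (YDR059C, chromosome IV, 569233 to 569769, 1 intron) had 53.5 and 56.6 FPKM in Asr1-RING and 50.2 and 45.3 FPKM in WT. Each had both mutant libraries above both WT libraries by a small margin. The differences were 0.15 for UBC4 (SE 0.0905, limma adjusted p = 0.3498) and 0.20 for UBC5 (SE 0.0998, limma adjusted p = 0.261). UBC4 was 5.68 and 5.28 times UBC5 in the Asr1-RING libraries and 5.59 and 5.82 times UBC5 in the WT libraries, so the ratio of the pair overlapped between strains. The RPL40A to RPL40B ratio likewise overlapped, at 1.51 and 1.42 in Asr1-RING and 1.35 and 1.41 in WT within their uncertain split.

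None of the recycling proteases passed the test. DOA4 (YDR069C, chromosome IV, 584938 to 587718), which takes ubiquitin off membrane proteins bound for the vacuole, had 7.55 and 8.998 FPKM in Asr1-RING and 7.12 and 7.77 FPKM in WT. Mutant replicate 1 lay between the WT libraries (difference 0.13, SE 0.124, limma adjusted p = 0.5403). UBP14 (YBR058C, chromosome II, 353670 to 356015), which takes apart unanchored ubiquitin chains, had 16.6 and 20.3 FPKM in Asr1-RING and 15.5 and 15.0 FPKM in WT. The mutant libraries were above WT but spread more widely (difference 0.25, SE 0.122, limma adjusted p = 0.2498). UBP14 came nearest to a call without Asr1-RING replicate 1 (difference 0.39, limma adjusted p = 0.0550).

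UBP6 (YFR010W, chromosome VI, 165060 to 166559), the protease that works on the proteasome, had 38.5 and 35.001 FPKM in Asr1-RING and 39.7 and 36.7 FPKM in WT. The groups overlapped, and UBP6 was the 1 member with a difference below 0 (-0.06, SE 0.101, limma adjusted p = 0.755), which became 0.01 when mutant replicate 2 was left out.

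As a group, 9 of 10 members had a difference above 0, with a median of 0.17 against 0.02 over all rows and 0.03 over ORF rows. A difference above 0 was also found in 3641 of all 6892 rows and in 3620 of the 6517 ORF rows. In 7 of 10 members both mutant libraries lay above both WT libraries, and in 0 below, where 33.0% of all rows lay above and 27.2% below. Among the 6517 ORF rows, 2269 lay above and 1546 below. At an unadjusted p under 0.05, 2 members were higher and 0 lower, where 14.6% of all rows were higher and 11.9% lower. Among the 6517 ORF rows, 1002 were higher and 498 lower at that threshold. With 10 members chosen with earlier results known, these counts describe the group and are not a test of it.

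In 5 lists of the wider ubiquitin pathway 3 of 84 genes were called higher and 0 lower, a share of 3.57% beside the 1.89% of all rows called higher. At an unadjusted p under 0.05, 1002 of 6517 ORF rows were higher and 498 lower. Of 10 other conjugating enzymes limma called 0, with 2 higher and 0 lower at that unadjusted threshold and a median difference of -0.06. The smallest p was that of UBC7, an E2 of the degradation of misfolded proteins at the endoplasmic reticulum, at 88.0 and 102 FPKM in Asr1-RING and 69.9 and 72.7 FPKM in WT (difference 0.40, limma adjusted p = 0.0852). Among 18 other deubiquitinating enzymes 4 were higher and 0 lower at an unadjusted p under 0.05, with a median of 0.04. Limma called 1 of them higher and 0 lower. This was UBP5 (YER144C), the paralog of DOA4, with 18.2 and 19.7 FPKM in Asr1-RING and 12.3 and 12.2 FPKM in WT (difference 0.59, SE 0.0964, limma adjusted p = 0.0238). DOA4 and UBP5 thus differed in whether they passed the test, but the difference between them was not tested.

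Of 33 ubiquitin ligases limma called 1 higher and 0 lower, where 1.89% of all rows were called higher and 4.95% lower. Their median difference was 0.03. At an unadjusted p under 0.05, 4 ligases were higher and 1, ASR1, lower, where 1002 of 6517 ORF rows were higher and 498 lower. The list median was 0.05 without mutant replicate 1, and 0.08 and 0.03 without WT replicates 1 and 2. HEL1, listed in the table as YKR017C, rose to 14.6 and 15.6 FPKM in Asr1-RING, against 10.05 and 9.65 FPKM in WT (difference 0.57, SE 0.0981, limma adjusted p = 0.0278). The list includes ASR1, whose values are given above. Of 9 adaptors and regulators of ubiquitin recycling limma called 0, with 3 higher and 0 lower at an unadjusted p under 0.05 and a median of 0.11. The smallest p was that of CDC48, the segregase that pulls ubiquitinated proteins apart, at 204 and 258 FPKM in Asr1-RING and 155 and 160.4 FPKM in WT (difference 0.54, limma adjusted p = 0.0729).

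Of 14 genes of ubiquitin-like modifiers and their enzymes limma called 1 higher and 0 lower, with a median of 0.01. Over all rows tested 1.89% were called higher and 4.95% lower. At an unadjusted p under 0.05, 2 of the 14 were higher and 0 lower, where 1002 of 6517 ORF rows were higher and 498 lower. ATG7 (YHR171W), the E1-like enzyme of autophagy, had 8.99 and 9.10 FPKM in Asr1-RING and 5.55 and 6.21 FPKM in WT (difference 0.55, SE 0.109, limma adjusted p = 0.0430). The calls of UBP5, HEL1 and ATG7 ended without WT replicate 1 (limma adjusted p = 0.234, 0.2275 and 0.3585) and without WT replicate 2 (limma adjusted p = 0.201, 0.222 and 0.178), and that of ATG7 also without Asr1-RING replicate 2 (limma adjusted p = 0.0670). With no filter on low values the 3 calls ended too (limma adjusted p = 0.0783, 0.0806 and 0.0868), as they did with ORF rows only (limma adjusted p = 0.0585, 0.0585 and 0.0680), and that of ATG7 ended with libraries centred on a common median (limma adjusted p = 0.0725). When mutant replicate 1 was left out, the median was -0.04 for the other conjugating enzymes and 0.01 for the other deubiquitinating enzymes. It was then 0.12 for the adaptors and regulators and -0.0002 for the genes of ubiquitin-like modifiers.

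Among the stress regulators HSF1, MSN2, MSN4 and RPN4 limma called 0, and 0 had an unadjusted p under 0.05. Their median difference was 0.06, and 0.18 when mutant replicate 1 was left out, which leaves 1 mutant library. The mutant libraries were far apart for MSN4, at 13.5 and 26.0 FPKM in Asr1-RING and 12.9 and 13.1 FPKM in WT, and for MSN2, at 16.7 and 27.1 FPKM in Asr1-RING and 17.4 and 17.4 FPKM in WT. The smallest p was that of RPN4, the activator of proteasome genes, at 18.2 and 17.2 FPKM in Asr1-RING and 22.03 and 20.1 FPKM in WT (difference -0.24, limma adjusted p = 0.205).

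**Figure D4:**
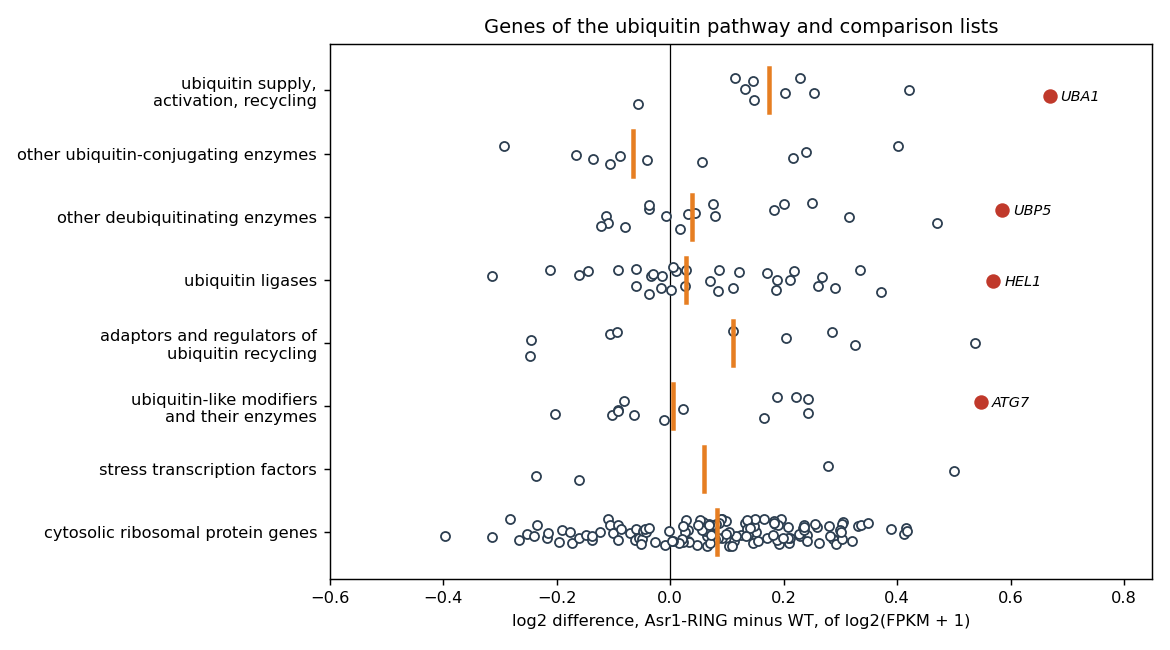
Difference of log2(FPKM + 1), Asr1-RING minus WT, for every tested gene of each list (points; vertical scatter within a list has no meaning), with the median of the list as an orange bar. Filled points passed an adjusted p under 0.05: UBA1, UBP5, HEL1 and ATG7, at 0.67, 0.59, 0.57 and 0.55.

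UBA1 and UBI4, the members with the largest differences, were also the 2 members whose upstream region holds the proteasome-associated control element GGTGGCAAA, the sequence bound by Rpn4. UBI4 did not pass the test, and any link between the element and the differences was not tested. It was searched on both strands from 250 bases before to 50 bases after the start codon, in the R64 reference, and 1.2% of 6020 coding genes hold it. The stretches below are on the strand of each gene, with the motif in capitals, which in UBI4 stands as its reverse complement. In UBA1 (chromosome XI, plus strand) it begins 129 bases before the start codon, and in UBI4 (chromosome XII, minus strand) 160 bases before it.
UBA1: aaaaggtgcgGGTGGCAAAtaaaggtaaa
UBI4: ggctccgggtTTTGCCACCtttgaattcg

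Genes with that element outside the members were near the background in the shares that passed a threshold. Of 69 such rows tested limma called 0 higher, where 2.0% of all 5892 rows with an upstream region read were called higher. At an unadjusted p under 0.05, 18.8% of the 69 (13 rows) were higher and 5.8% (4 rows) lower, where 16.0% and 7.2% of the 5892 were. Their median difference was 0.07 against 0.03 over the 5892. A difference above 0 was found in 45 of the 69 and in 3305 of the 5892. Whether the 69 differ from the background was not tested. The stress response element AGGGG was in 0 of 10 member regions and in 21.6% of all regions. These regions reach only 250 bases before the start codon, and sequence further upstream was not searched. The gap between UBI4 and ENT4, the next row upstream of it, is 567 bp, so part of that gap was not read. Whether UBI4 has the element there was not tested. A pattern of the heat shock element, GAANNTTC or TTCNNGAA, was in the regions of RPL40A, RPS31 and UBA1 and in 22.6% of all regions. The RPL40A match lay after the start codon, and those of RPS31 and UBA1 lay before it. Matches to these letters, which did not overlap each other in the members, describe the sequence and do not show a bound site.

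The rows whose profile over the 4 libraries was nearest to that of UBI4 were COF1, PSE1, LYS20, SUB2 and NAM7. Likeness was the Euclidean distance of log2(FPKM + 1) centred on each row's mean, which was 0.00506 for COF1 and 0.0210 to 0.0245 for the other 4. COF1, which encodes the actin-severing protein cofilin, had 990 and 1147 FPKM in Asr1-RING and 765 and 830.2 FPKM in WT. The nearest member was RPL40A, at a distance of 0.20 and with 730 rows closer, followed by UBP14 at 0.21. With 4 libraries, many rows lie at small distances, so nearness describes the profile alone.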

How the data were processed

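RNA of 4 yeast libraries was measured, and the authors deposited 1 table with an FPKM value per row and library, per the file headers. Per the submitters' processing notes, TopHat2, Cufflinks and the build sacCer2 were used, and versions, settings, annotation and strand handling are not stated there. Groups come from the sample titles, columns were tied to samples by their description labels, and 0 value columns were unused. Starts in the table count from 0 and were raised by 1.

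FPKM values are not counts, and a pseudocount of 1 was added before taking log2. Rows averaging 1 FPKM or more were compared with limma, moderated with a trend in level, at 2 residual degrees of freedom and a prior of 3.71. P-values were adjusted over 6892 rows by Benjamini and Hochberg's method. On this scale the change of a low row is understated. The exact steps of low ORF rows (350 to 3000 bp, 0.5 to 8.5 fragments, whole within 0.1, 202 bp taken off each length) gave estimated depths of 42.8 and 44.8 for Asr1-RING and 47.3 and 40.8 for WT, in units of 1000000 fragments, with 86.7% to 90.2% of the rows used coming out whole. Counting errors cover counting alone.

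Libraries of a group correlated at r = 0.991 and libraries of different groups at 0.976 to 0.984 (Pearson, across rows, which are not independent). All libraries had the markers of alpha cells: 4 alpha-cell genes ranged from 337 to 4302 FPKM and 7 a-cell genes from 2.40 to 67.2 FPKM. Summed FPKM was 3742848 and 3777252 in Asr1-RING and 5369809 and 4870207 in WT.

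The members, gene lists, motifs and tests were chosen with earlier results of these data known. All members were named. From each other list the called genes, at most 2, or else the 1 with the smallest p were named, and the 5 rows nearest to UBI4. The name pattern for ribosomal proteins also took RPP1, a subunit of RNase P, which was removed after the values were seen. The names MIY1, HEL1 and HEL2 were matched through RefSeq to systematic names. Sequences were read from R64 with its own annotation and no R64 coordinates are given. The test was checked on simulated data. In bulk RNA a change per cell and a change in the share of expressing cells cannot be told apart.

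Python 3.11.15 with pandas 2.3.3, numpy 2.4.6, Biopython 1.88 and matplotlib 3.10.9, and R 4.3.3 with limma 3.58.1, were used.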

Additional observations from a re-analysis of the deposited data

How the results depend on the processing

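Over 14 alternatives for each member, 13 for DOA4, which a mean of at least 10 FPKM removes, no direction turned except that of UBP6, which ranged from -0.12 to 0.01 with 1 mutant library left out (0.009725 without Asr1-RING replicate 2). UBA1 was called in 12 of 14, UBI4, RPL40A and RPL40B in 1 of 14 each, and the other 6 members in 0. The count of members called higher, 1 as reported, was 2 at an adjusted p under 0.1, 3 after quantile normalization and 0 to 2 with 1 library left out, and the count called lower was 0 throughout. Rows called higher, 130 as reported, numbered 449 at an adjusted p under 0.1, 21 with no filter, 216 with a mean of at least 10 FPKM, 70 with a common median, 307 after quantile normalization, 256 with robust moderation, 237 with the replicate block, 36 with ORF rows only, and 16 to 781 with 1 library left out. Rows called lower, 341 as reported, numbered 182 with no filter, 23 with ORF rows only and 197 to 553 with 1 library left out. The causes were not tested. Settings of the filter, the moderation, the replicate block and ORF rows only can change calls but leave each member's difference as it is. The low counts with 1 WT library assume that the lone library varies like the mutant pair. Counts with 1 mutant library likewise assume that it varies like the WT pair.

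Libraries share replicate numbers and nothing pairs them: the correlation of same-numbered deviations was -0.07. With the replicate block UBA1 kept its call (limma adjusted p = 0.0292) and the count of members called higher was 1. Of 140 list medians under alternatives 118 moved by less than 1 SD between replicate libraries. Of 196 list counts 172 stayed within 1.5 times. Both totals include values that stayed fixed, so they overstate stability. List counts called lower were 0 under every setting. List medians were left as they were with no filter, other moderation, the replicate block and ORF rows only. UBP5 and HEL1 were called in 10 of 14 alternatives and ATG7 in 7 of 13.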

Other observations

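No member's row overlapped another row of the table. A small RNA row lay next to 3 of the 10 members, and each of these small RNA rows was lower in the mutant. By limma 281 of all 375 tested rows that are not ORFs were called lower (74.9%). SNR64, a small nucleolar RNA that ends 251 bp before the UBA1 row, had 6209 and 7458 FPKM in Asr1-RING and 12909 and 11065 FPKM in WT (difference -0.81, limma adjusted p = 0.0261). The aspartate tRNA rows tD(GUC)B, 596 bp from UBC4, and tD(GUC)D, 198 bp from UBC5, are listed with equal values of 968 and 1010.5 FPKM in Asr1-RING and 3284 and 2575 FPKM in WT (difference -1.56, limma adjusted p = 0.00285 for tD(GUC)B). On the other side of UBA1, STE6, the a-factor exporter, had 2.87 and 2.93 FPKM in Asr1-RING and 2.61 and 2.65 FPKM in WT. Any part of the small RNA values in those of the neighbouring members was not tested.

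Of the genes that flank the ubiquitin genes, UPS2 and PTR2 are given here, chosen after their values were seen. UPS2, 172 bp from RPS31, had 9.92 and 9.06 FPKM in Asr1-RING and 13.3 and 13.4 FPKM in WT (difference -0.45, limma adjusted p = 0.0572). PTR2, a peptide transporter gene 460 bp from RPL40B, had 243 and 252 FPKM in Asr1-RING and 278 and 274 FPKM in WT. PTR2 did not pass limma's test either (difference -0.16, adjusted p = 0.3104).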
